A study of Mus musculus with 20 samples.

Results

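The 38 genes described here encode proteins of the receiving side of the synapse and the adhesion molecules that hold synapses together, without the neurotransmitter receptors. They were chosen by name, as the rows of the deposited count tables whose gene symbol is on the list, 38 of 47729 genes, and all 38 had reads in each of the 20 libraries and passed the filter on low counts. The libraries hold mRNA of the cortex and the hippocampus of 10 mouse pups of strain C57Bl/6J at postnatal day 7. Mice 1 to 5 were WT. Mice 6 to 10 were Ube3aOE, which carry a bacterial artificial chromosome transgene with additional copies of *Ube3a*, a ubiquitin ligase, and its flanking sequence under its own control elements, in addition to the intact endogenous gene. Each mouse gave 1 library per region, so there were 5 libraries in each of 4 groups. The labels do not name the transgenic line. The study says that after validation its work focused on line E, 1 of the lines with the transgene inserted in chromosome 3. That chromosome also holds the members *Camk2d*, *Nlgn1* and *Slitrk3*.

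Below the membrane of an excitatory synapse, the PSD-95 family proteins made from *Dlg1* to *Dlg4* bind receptors and adhesion proteins, the SAPAP proteins (*Dlgap1* to *Dlgap4*) bind them from below, and Shank and Homer proteins tie this layer to the actin skeleton and to internal calcium stores. The CaM kinase II subunits and neurogranin respond to calcium, and neuroligins, LRRTMs and Slitrks reach across the cleft to neurexins and receptor phosphatases of the axon. The pentraxins made from *Nptx1* and *Nptx2*, which are secreted, and from *Nptxr*, which sits in the membrane, cluster AMPA receptors, and gephyrin (*Gphn*) is the main scaffold of inhibitory synapses. In the mouse forebrain the first postnatal weeks are a period of rapid synapse formation.

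The total count on genes lay between 14191093 and 16752326 per library, and the members took 0.874% to 1.13% of it. Values are given as CPM, counts scaled with TMM factors to the library total, and levels of different genes are compared only as CPM per kb of annotated exons. Both tissues had the marker genes that their labels call for: the 6 hippocampal markers (*Prox1*, *Zbtb20* and others) summed to 336.7 to 529.8 CPM in hippocampus and 70.1 to 204 in cortex, and the 7 neocortical markers to 224 to 458 and 585 to 940.2, with no marker of these lists at 0 across a tissue. *Ube3a* lay between 142 and 195 CPM in the 5 Ube3aOE hippocampi and between 57.1 and 76.8 in the 5 WT hippocampi, and between 129.6 and 182 against 54.4 to 69.96 in cortex, as the labels say. Some libraries carried more RNA of neighbouring regions. The 5 thalamic markers summed to 499, 502 and 958 CPM in the hippocampi of mice 4, 7 and 10 (tissue median 165), the 8 striatal markers to 910.4 in that of mouse 9 (median 159), the neocortical markers to 458 in that of mouse 2 (median 260.4), and the hippocampal markers to 204 and 186 in the cortices of mice 8 and 9 (median 79.96). Choroid plexus markers summed to 1956 CPM in the hippocampus of mouse 7 and 348 in that of mouse 9, against a median of 15.1. These 7 libraries, of which 5 are Ube3aOE, were left out in an added fit. The sex-linked counts of 2 of the 10 mice went against the labelled sex.

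The promoters of the members that stood most above and most below cortex in hippocampus, among called members with a single entry in the RefSeq promoter table, are shown to place them in the genome and to show how unlike they are. *Homer3* encodes a Homer scaffold and lies on chromosome 8, and *Lrrtm3* encodes a leucine-rich repeat adhesion protein and lies on chromosome 10. Each sequence is the 250 bases before the RefSeq start (GRCm38.p6), 5′ to 3′ on the gene's strand, and capitals mark the GC box GGGCGG or its reverse complement CCGCCC, the letters bound by Sp1-type factors.
Homer3, chr8:70282749-70282998, plus strand: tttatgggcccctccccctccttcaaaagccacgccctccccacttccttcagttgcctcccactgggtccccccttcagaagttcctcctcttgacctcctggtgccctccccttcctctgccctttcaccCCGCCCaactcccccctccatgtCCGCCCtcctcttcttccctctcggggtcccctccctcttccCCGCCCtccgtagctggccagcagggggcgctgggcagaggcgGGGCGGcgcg
Lrrtm3, chr10:64090256-64090505, minus strand: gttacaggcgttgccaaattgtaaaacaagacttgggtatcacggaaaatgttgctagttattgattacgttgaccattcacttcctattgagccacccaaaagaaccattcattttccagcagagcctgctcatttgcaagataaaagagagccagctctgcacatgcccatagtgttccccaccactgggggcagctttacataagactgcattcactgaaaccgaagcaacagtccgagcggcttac
The *Homer3* window held 4 GC boxes and was 68.0% G and C, and the *Lrrtm3* window held 0 and was 46.0%. The table held 44 windows of 28 members, since a gene can have several starts. A GC box stood in 19 of the 44 windows (43.2%) and in 32.7% of all 32851 windows of this length, and the letters TATAAA, on either strand, in 5 of the 44 (11.4%) and in 12.4% of all. These are matches of letters and not measured binding sites. The members without an entry were *Nptxr*, *Dlgap2*, *Shank2*, *Nlgn3*, *Lrrtm2*, *Nptx1*, *Nptx2*, *Camk2g*, *Shank1* and *Camk2a*.

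The levels of the members spanned more than 2 orders of magnitude. *Nrgn*, which encodes the calmodulin-binding protein neurogranin, had the highest level in both regions, at 1144 ± 182 CPM per kb in cortex (SD, n = 10) and 728 ± 153 in hippocampus. *Nptxr* followed at 107 ± 9.07 and 185 ± 13.7 CPM per kb, and *Camk2a*, the alpha subunit of CaM kinase II, at 94.6 ± 15.8 and 181 ± 40.3. *Camk2b*, the beta subunit, stood at 118 ± 7.44 in cortex and 121 ± 10.6 in hippocampus, so that its mean ranked above those of *Nptxr* and *Camk2a* in cortex, by less than 2 SD for *Nptxr*, and below both in hippocampus. *Nptxr* and *Camk2a* differed by less than the SD of *Camk2a* in both regions. Next came *Nlgn2* at 74.4 ± 3.69 and 68.01 ± 5.27 and *Dlg4*, which encodes PSD-95, at 66.4 ± 6.52 and 57.6 ± 3.96. The lowest level over all libraries was that of *Slitrk2*, at 2.600 ± 0.291 and 2.56 ± 0.353 CPM per kb, with counts of 215 to 404 reads. By their medians the members were longer and more highly expressed than all genes tested, though not every member was long. Their genomic span had a median of 63278 bases (from 5359 for *Slitrk1* to 1972576 for *Dlg2*) against 23538 over all genes tested, and their mean level a median of 114 CPM against 21.8. Within a group of 5 mice the coefficient of variation had a median of 10.7% over the members and 11.7% over all genes, and ranged from 3.97% for *Camk2g* to 37.5% for *Camk2d*.

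The first comparison asks how the postsynaptic genes differ between the 2 regions. Of the 38 members, 13 were higher and 14 lower in hippocampus than in cortex, and 11 did not pass the test (edgeR quasi-likelihood, adjusted p under 0.05 over 15661 genes). The called share of 71.1% stands beside 50.9% of all genes tested (25.3% higher and 25.6% lower) and 55.2% of the 7980 genes at least as abundant as the lowest member. Differences below are hippocampus minus cortex on the log2 scale, ± SE. The median difference of the members was 0.02, and that of all genes -0.01. Of the calls, 11 were beyond 0.5 on the log2 scale, 6 higher (*Nptx1*, *Nptx2*, *Homer3*, *Camk2a*, *Nptxr* and *Slitrk3*) and 5 lower (*Lrrtm3*, *Shank2*, *Nrgn*, *Dlg2* and *Dlg1*), against 19.2% of all genes in either direction. In bulk tissue a lower value can come from fewer cells of a type or from less RNA per cell, and these cannot be told apart. Marker genes of broad cell classes differed between the regions as well: 5 of 6 astrocyte markers and 4 of 4 excitatory neuron markers were higher in hippocampus, and 5 of 6 pan-neuronal markers were lower. Among the excitatory markers *Slc17a6* was farthest apart (1.15), and the hippocampi of mice 4, 7 and 10 had high thalamic marker sums. Also higher were 4 of 5 microglia, 4 of 4 dividing-cell, 3 of 7 oligodendrocyte and 2 of 4 GABAergic markers, and 1 of 4 endothelial markers was lower. The part of these cell classes in the members' differences was not tested. In the fit with the mouse as a block, 28 members were called, the same 27 and *Slitrk1* (adjusted p = 0.0154). With the block and the trend on length and GC content removed, 28 members were called, the same 27 and *Camk2g*, 13 higher and 15 lower. The share of higher calls over all genes went from 49.7% to 39.4% (3553 higher and 5468 lower), with the median of all genes at -0.06.

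**Figure D1:**
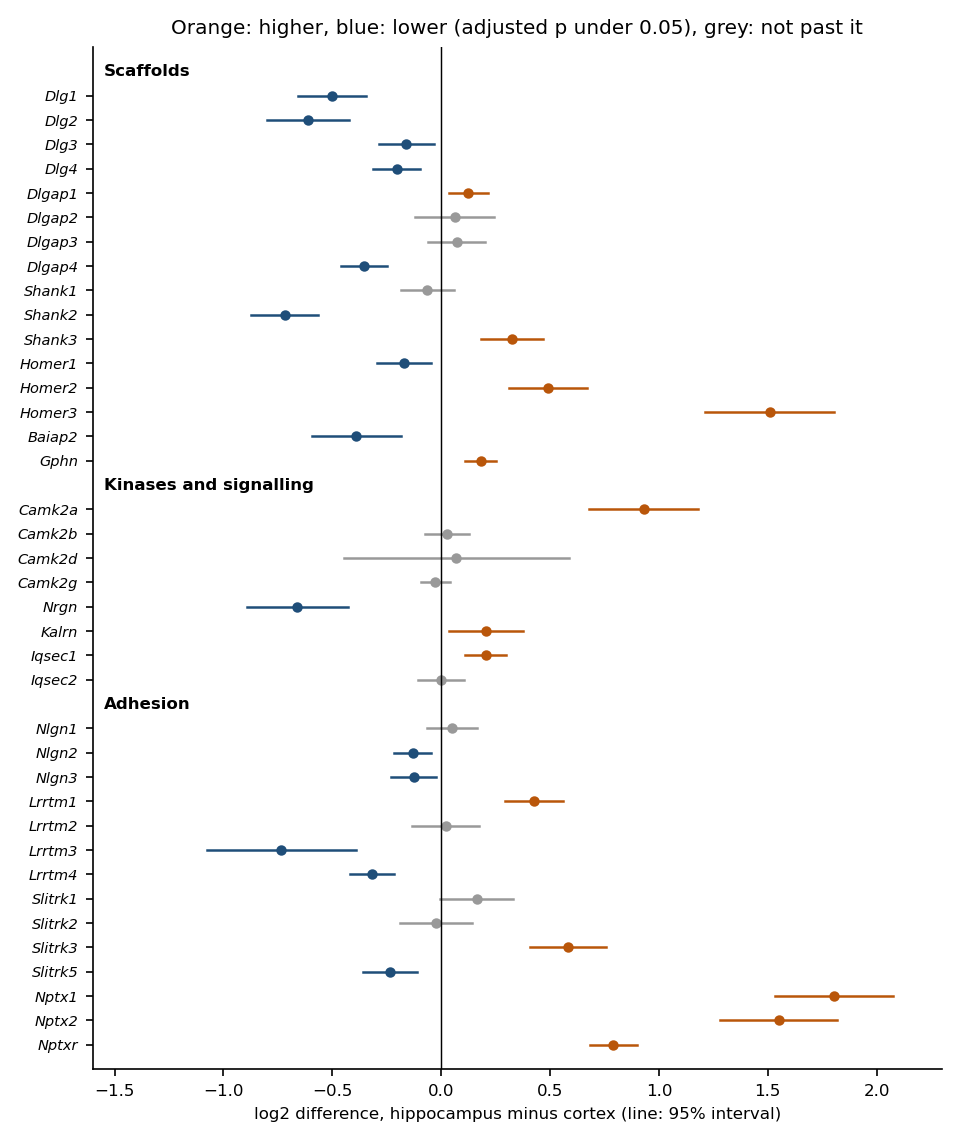
The log2 difference between hippocampus and cortex (x axis) is plotted for each of the 38 members, with the 95% interval as a line; orange marks the 13 that were higher, blue the 14 that were lower and grey the 11 that did not pass the test. *Nptx1*, *Nptx2* and *Homer3* lie farthest to the right, and the wide grey line is *Camk2d*.

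The pentraxins and their receptor were all higher in hippocampus. *Nptx1* in cortex was at 50.3, 34.02, 54.3, 44.4 and 50.7 CPM in WT mice 1 to 5 and 53.5, 45.8, 55.4, 67.99 and 50.7 CPM in Ube3aOE mice 6 to 10. In hippocampus it was at 201, 135, 205, 188 and 236 CPM in WT mice 1 to 5 and 223, 139, 193, 115 and 137 CPM in Ube3aOE mice 6 to 10. The lowest hippocampus stood above the highest cortex, and the fitted difference was 1.80 ± 0.13 on the log2 scale, or 3.49-fold (adjusted p = 3.82e-09). *Nptx2* in cortex was at 20.1, 10.02, 16.8, 15.9 and 17.6 CPM in WT mice 1 to 5 and 19.8, 17.5, 16.2, 20.99 and 18.99 CPM in Ube3aOE mice 6 to 10. In hippocampus it was at 52.6, 35.01, 53.5, 60.1 and 50.9 CPM in WT mice 1 to 5 and 46.3, 55.1, 41.4, 40.3 and 73.7 CPM in Ube3aOE mice 6 to 10. These ranges did not overlap either, and the difference was 1.55 ± 0.13 on the log2 scale, or 2.93-fold (adjusted p = 1.42e-08). *Nptxr*, the membrane-bound pentraxin, was at 576, 565, 515, 550.4 and 546 CPM in WT mice 1 to 5 and 504, 509, 599, 649 and 507 CPM in Ube3aOE mice 6 to 10 in cortex. In hippocampus it was at 1034, 869, 1005, 957 and 952 CPM in WT mice 1 to 5 and 1001, 849, 1006, 861 and 1021 CPM in Ube3aOE mice 6 to 10. It was the most even of the 3, and its difference of 0.79 ± 0.053, or 1.73-fold, had the smallest adjusted p of all members (4.65e-10). Of the annotated exon bases of *Nptxr*, 17.2% overlap *Npcd* on the same strand, where position alone does not tell the 2 genes apart. Reads that the counting set aside as ambiguous, 0.756% to 0.879% of a library's reads, were in no gene's count. How many of them fell on *Nptxr* was not tested.

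**Figure D2:**
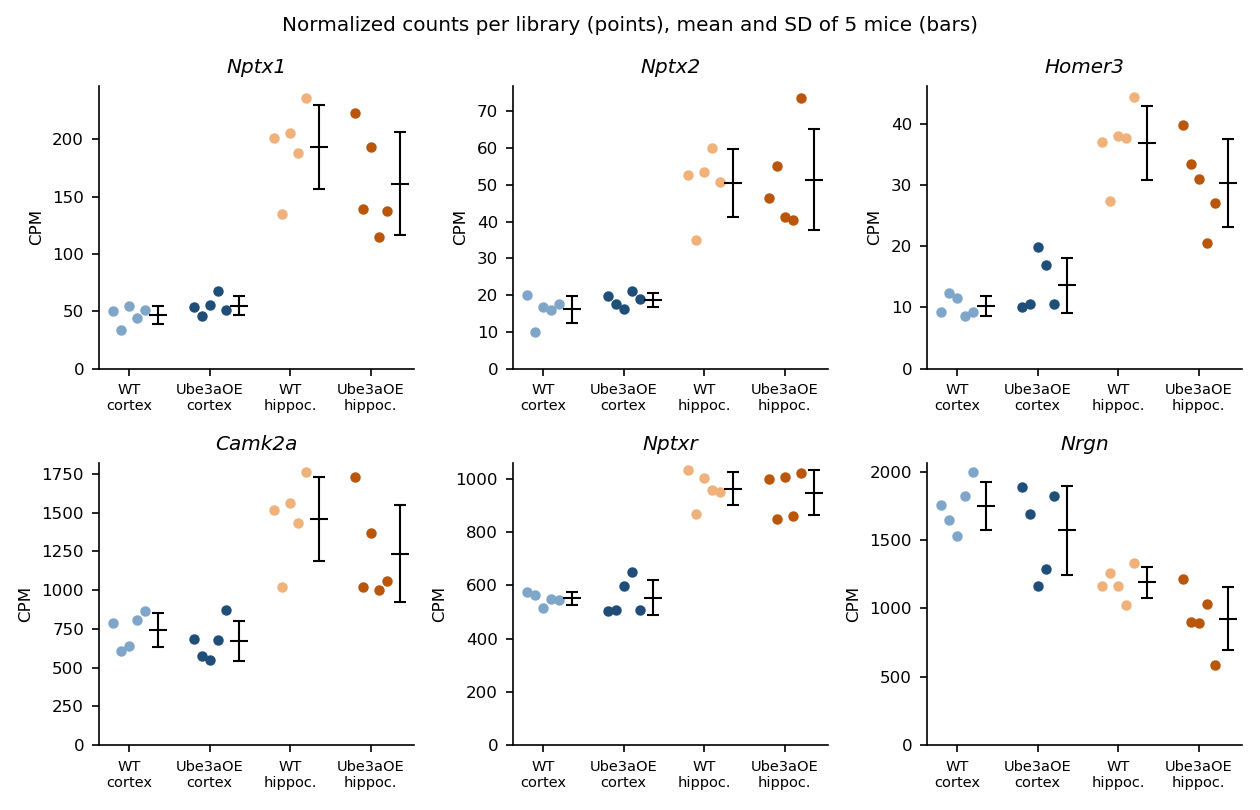
CPM (y axis, from 0) in each library of the 4 groups for 6 members, with the mean and SD of the 5 mice of a group beside the points. The hippocampal points of *Nptx1*, *Nptx2*, *Homer3*, *Camk2a* and *Nptxr* all lie above the cortical ones, while those of *Nrgn* lie lower with some overlap.

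Among the scaffolds, the Homer genes parted. *Homer3* in cortex was at 9.19, 12.3, 11.6, 8.59 and 9.21 CPM in WT mice 1 to 5 and 10.1, 10.5, 19.8, 16.97 and 10.6 CPM in Ube3aOE mice 6 to 10. In hippocampus it was at 36.98, 27.4, 38.1, 37.6 and 44.4 CPM in WT mice 1 to 5 and 39.8, 33.4, 31.03, 20.5 and 27.03 CPM in Ube3aOE mice 6 to 10. The highest cortical values, 19.8 and 17.0 in mice 8 and 9, were in the 2 cortices with the highest sums of hippocampal markers, and the lowest hippocampal value, 20.5 in mouse 9, in the one with the high striatal sum; the part of these in the values was not tested. The difference was 1.51 ± 0.14 on the log2 scale, or 2.84-fold (adjusted p = 6.23e-08), and 1.88 without the 7 libraries. *Homer2* was higher as well, by 0.49 ± 0.086 (adjusted p = 8.15e-05), whereas *Homer1* was lower, at -0.17 ± 0.059 (adjusted p = 0.0194), a call that was lost without the 7 libraries (-0.09, adjusted p = 0.208). Of the *Homer3* exon bases, 25.4% lie opposite *Ddx49*, and the strand setting of the counting is not given in the sources used here.

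The 4 PSD-95 family genes were all lower in hippocampus: *Dlg2* at -0.61 ± 0.090, *Dlg1* at -0.50 ± 0.075, *Dlg4* at -0.20 ± 0.052 and *Dlg3* at -0.16 ± 0.060. *Dlg1* and *Dlg3* were lower in the hippocampus of 10 of 10 mice, *Dlg2* in 9 and *Dlg4* in 7. The call of *Dlg3* (adjusted p = 0.0312) was lost without the 7 libraries (-0.18, adjusted p = 0.0726). *Shank2* was lower, at -0.72 ± 0.074 (adjusted p = 1.19e-07), and it was the only one of the 14 lower members whose regions did not overlap. *Shank3* was higher by 0.33 ± 0.068 in all 10 mice (0.20 without the 7 libraries), and *Shank1* did not pass the test (-0.06 ± 0.059, adjusted p = 0.383), though it did, at -0.16, without the 7 libraries (adjusted p = 0.0164). Of the SAPAP genes, *Dlgap4* was lower, at -0.36 ± 0.051 and in all 10 mice, and *Dlgap1* higher by 0.12 ± 0.043 (0.19 without the 7 libraries). *Dlgap2* and *Dlgap3* did not pass the test, at 0.06 and 0.07. *Baiap2*, which encodes the actin regulator IRSp53, was lower, at -0.39 ± 0.10 in all 10 mice. *Gphn* was higher by 0.18 ± 0.035, a small difference with little spread, and its hippocampal and cortical ranges did not overlap (adjusted p = 1.85e-04).

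Among the kinases and signalling proteins, *Camk2a* in cortex was at 789.7, 609, 638, 805 and 863 CPM in WT mice 1 to 5 and 684, 575, 549, 680.2 and 871 CPM in Ube3aOE mice 6 to 10. In hippocampus it was at 1516, 1022, 1565, 1433 and 1764 CPM in WT mice 1 to 5 and 1729, 1020.0, 1367, 1004 and 1061 CPM in Ube3aOE mice 6 to 10. The lowest hippocampus, 1004 CPM in mouse 9, was above the highest cortex, 871 CPM in mouse 10. The difference was 0.93 ± 0.12 on the log2 scale, or 1.90-fold (adjusted p = 3.63e-06), and 1.13 without the 7 libraries. The other 3 subunits did not pass the test, with *Camk2b* at 0.03 ± 0.049, *Camk2g* at -0.03 ± 0.032 and *Camk2d* at 0.07 ± 0.25. The interval of *Camk2b* ran from -0.08 to 0.13, and that of *Camk2d* from -0.45 to 0.59. *Camk2d*, singled out after its values were seen, was at 66.3, 81.1, 63.3, 122 and 72.3 CPM in WT mice 1 to 5 and 67.3, 132, 80.9, 164 and 202 CPM in Ube3aOE mice 6 to 10 in hippocampus. The 4 highest of these, in mice 10, 9, 7 and 4, were the 4 hippocampi with the high thalamic or striatal sums. In cortex it was at 86.96, 127, 77.3, 80.9 and 79.5 CPM in WT mice 1 to 5 and 61.1, 57.2, 182, 149.6 and 77.2 CPM in Ube3aOE mice 6 to 10, highest in mice 8 and 9. The part of other regions' RNA in these values was not tested.

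*Nrgn* went the other way from *Camk2a*. In cortex it was at 1758, 1649, 1532, 1825 and 1997 CPM in WT mice 1 to 5 and 1888, 1690.0, 1164, 1290.1 and 1823 CPM in Ube3aOE mice 6 to 10. In hippocampus it was at 1166, 1258, 1166, 1027 and 1335 CPM in WT mice 1 to 5 and 1215, 901, 891, 1034 and 584 CPM in Ube3aOE mice 6 to 10. Hippocampus was below cortex in 10 of 10 mice, while the ranges of the regions overlapped through the cortices of mice 8 and 9. The difference was -0.66 ± 0.11 on the log2 scale (adjusted p = 6.29e-05). *Kalrn*, which encodes a guanine exchange factor for Rac, was higher by 0.20 ± 0.081 (adjusted p = 0.0425) and *Iqsec1*, an exchange factor for Arf6, by 0.20 ± 0.046 (adjusted p = 8.11e-04). Without the 7 libraries these were 0.36 and 0.12, both called. *Iqsec2* was at -0.00 ± 0.051.

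Among the adhesion genes, the LRRTM and the Slitrk family each had called members in both directions. *Lrrtm1* was higher by 0.43 ± 0.064 with no overlap of the regions, *Lrrtm3* and *Lrrtm4* were lower, at -0.73 ± 0.16 and -0.32 ± 0.049, each in all 10 mice, and *Lrrtm2* stood at 0.02 ± 0.074. *Lrrtm3* varied most among these, with a mean coefficient of variation of 25.8%. *Slitrk3*, an adhesion protein of inhibitory synapses, was higher by 0.58 ± 0.084 in all 10 mice and *Slitrk5* lower, at -0.24 ± 0.060, with *Slitrk1* at 0.16 ± 0.080 and *Slitrk2* at -0.02 ± 0.080 not past the test. Without the 7 libraries *Slitrk1* passed, at 0.22 (adjusted p = 0.0132). The neuroligins differed little: *Nlgn2*, the neuroligin of inhibitory synapses, was lower, at -0.13 ± 0.040 (-0.21 without the 7 libraries), as was *Nlgn3*, at -0.13 ± 0.050, and *Nlgn1*, found at excitatory synapses, stood at 0.05 ± 0.055. The call of *Nlgn3* (adjusted p = 0.0393) was lost without the 7 libraries (-0.10, adjusted p = 0.271), and 41.2% of its exon bases overlap *Gm21986* on the same strand. In 8 members the libraries of the regions did not overlap, 7 higher (*Nptx1*, *Nptx2*, *Nptxr*, *Homer3*, *Camk2a*, *Lrrtm1* and *Gphn*) and 1 lower (*Shank2*), against 9.27% of all genes tested. In 9 members hippocampus was higher in all 10 mice (14.8% of all genes tested were), and in 8 it was lower in all 10 (13.4% of all genes).

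These differences altered the makeup of the families. Shares of a family's summed CPM per kb show it per length. The length is that of all annotated exons of a gene, so the size of a share depends on the annotation. *Camk2a* made up 37.7% ± 3.17 of the CaM kinase II transcripts in cortex (SD, n = 10) and 52.9% ± 5.18 in hippocampus, and *Camk2b* 47.5% ± 2.403 and 36.01% ± 3.32. *Homer3* made up 19.5% ± 3.74 of Homer transcripts in cortex and 37.8% ± 5.49 in hippocampus, and *Homer1* 42.4% ± 4.86 and 25.5% ± 3.62. *Shank2* went from 31.2% ± 1.704 of Shank transcripts in cortex to 20.8% ± 1.62 in hippocampus and *Shank3* from 23.1% ± 1.55 to 31.5% ± 1.797, with *Shank1* first in both. *Lrrtm1* led its family in both regions, with 56.6% ± 2.49 in cortex and 68.7% ± 4.53 in hippocampus. *Nlgn2* made up 82.7% ± 1.45 and 81.7% ± 1.26 of the neuroligins' summed CPM per kb. Its annotated exons hold 5785 bases, against 13422 for *Nlgn1* and 9271 for *Nlgn3*, of which 41.2% overlap *Gm21986*. The part of these lengths in the *Nlgn2* share was not tested.

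**Figure D3:**
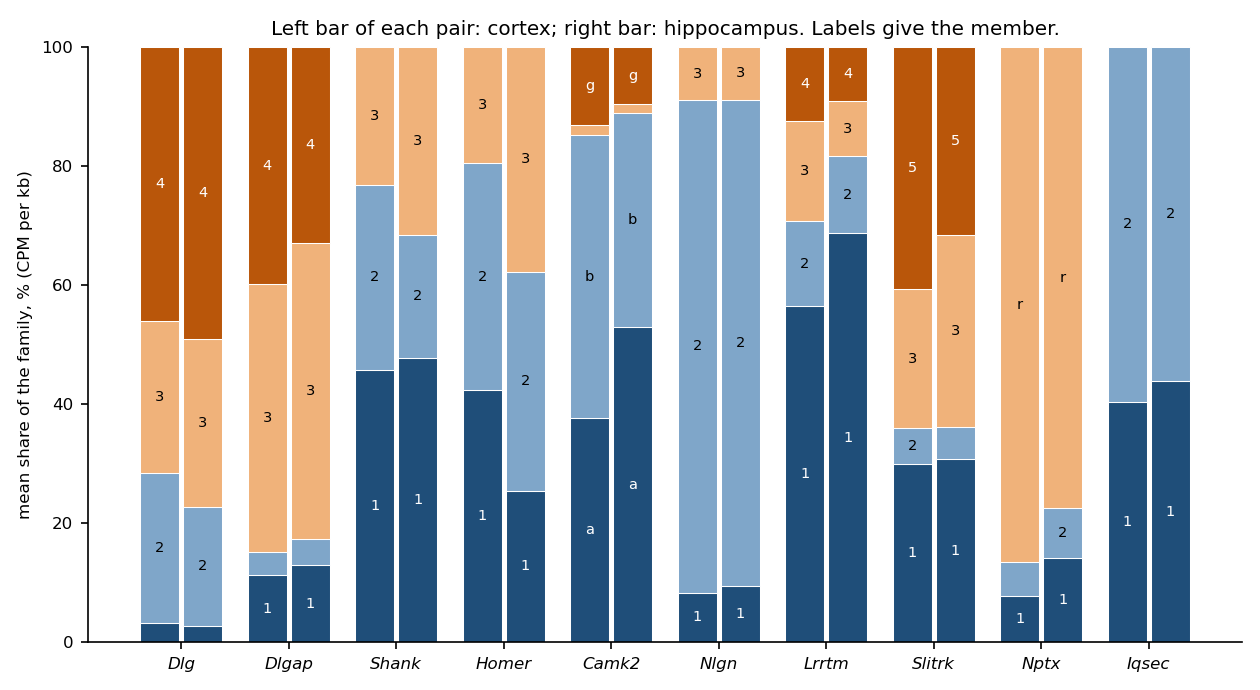
Mean share (%) of each member in the summed CPM per kb of its family, stacked to 100, with cortex as the left and hippocampus as the right bar of each pair. The *Camk2a* (a), *Homer3* and *Shank3* blocks are taller in hippocampus, and the neuroligin bars are alike.

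The ratio of the 2 members with the highest level per kb was compared between regions within each mouse, in 10 families, by a two-sided exact permutation test that swaps the regions of a mouse. The ratio differed in 8 of the 10 families after adjustment over them. Ratios of other pairs of genes were not tested, so this count has no share over all genes beside it. Of all single genes, 50.9% were called between the regions by edgeR. The largest differences on the log2 scale were those of *Nptxr* to *Nptx1*, at -0.99 ± 0.37 (SD over 10 mice, lower in 10 of 10), of *Camk2a* to *Camk2b*, at 0.89 ± 0.29 (higher in 10 of 10), and of *Homer2* to *Homer1*, at 0.67 ± 0.40 (higher in 10 of 10). The ratio of *Dlgap3* to *Dlgap4* was higher by 0.42 ± 0.25 and those of *Slitrk5* to *Slitrk1* and *Shank1* to *Shank3* differed by -0.40 ± 0.23 and -0.39 ± 0.16, all in the same direction in 10 of 10 mice. Each of these 6 had the smallest p the exact permutation test can give, 0.00195, with an adjusted p of 0.00326. *Lrrtm1* to *Lrrtm2* was higher by 0.40 ± 0.30 in 9 of 10 mice (exact permutation, adjusted p = 0.00837), and *Iqsec2* to *Iqsec1* differed by -0.20 ± 0.27, lower in 7 of 10 (exact permutation, adjusted p = 0.0488), a call lost without mouse 1, 2, 4, 6, 7, 9 or 10. The ratios of *Dlg4* to *Dlg3* (-0.04 ± 0.12) and of *Nlgn2* to *Nlgn3* (-0.01 ± 0.087) did not pass (exact permutation, adjusted p = 0.291 and 0.740).

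The WT and the Ube3aOE mice give the regional comparison in separate animals. In the 5 WT mice 12 members were higher and 11 lower in hippocampus, with 38% of 15088 genes called, and in the 5 Ube3aOE mice 11 were higher and 5 lower, with 26.9% of 15147 genes called. The 11 lower members in WT mice were 7 without mouse 4, and the 5 in Ube3aOE mice were 3 without mouse 7 and 8 without the 7 libraries. Of the members, 15 were called in both, all with the same sign, as were 21.9% of the 14952 genes tested in both. Of these 15, *Shank3* lost its Ube3aOE call without the 7 libraries (0.20, adjusted p = 0.210), and *Homer2*, *Gphn* and *Nrgn* lost theirs without the filter on low counts (adjusted p = 0.107, 0.0568 and 0.0509). Without the 7 libraries *Iqsec1* was no longer called in Ube3aOE mice (0.19, adjusted p = 0.119), nor *Baiap2* (-0.24, adjusted p = 0.0723) and *Slitrk5* (-0.19, adjusted p = 0.0503) in WT mice, while *Baiap2*, *Dlg4*, *Kalrn*, *Lrrtm3* and *Slitrk1* became called in Ube3aOE mice. *Nptx1* differed by 2.06 ± 0.16 in WT and 1.57 ± 0.19 in Ube3aOE mice, *Nptx2* by 1.66 ± 0.18 and 1.47 ± 0.16, and *Homer3* by 1.88 ± 0.13 and 1.17 ± 0.23, the last being 1.78 without the 7 libraries. *Camk2a* differed by 1.00 and 0.89, *Shank2* by -0.76 and -0.65, and *Nrgn* by -0.54 and -0.75. *Lrrtm3* was called in WT (-0.84 ± 0.20, adjusted p = 0.00791) and not in Ube3aOE mice (-0.60 ± 0.23, adjusted p = 0.0716), where it passed with the mouse as a block (adjusted p = 0.0224). *Dlg3* passed in WT mice with the block (adjusted p = 0.0244) and not without it (adjusted p = 0.0756).

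**Figure D4:**
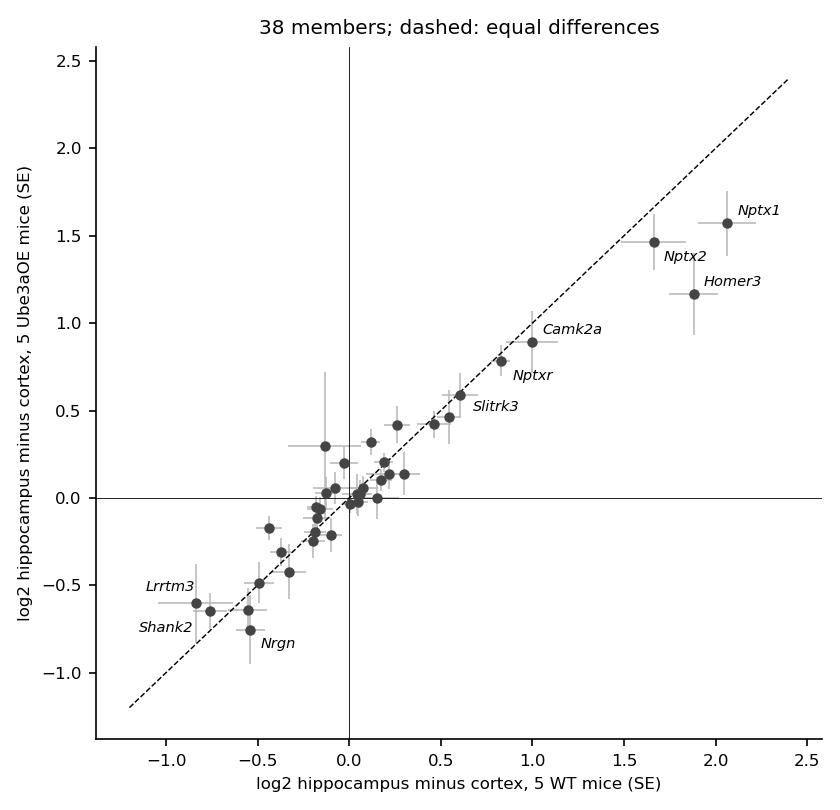
The log2 difference between hippocampus and cortex of the 38 members in the 5 WT mice (x axis) and the 5 Ube3aOE mice (y axis), with SE bars; the dashed line marks equal differences. The 15 members called in both genotypes lie in the upper right and the lower left, and *Homer3* and *Nptx1* lie below the line.

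Whether the regional difference itself changed with the genotype was tested as an interaction. No member passed after adjustment by edgeR, DESeq2 or limma voom (0% of 15661 genes did by edgeR), and 3 of 38 had an unadjusted p under 0.05 by edgeR, against 3.77% of all genes. These were *Lrrtm4* (0.27 ± 0.10), *Homer3* (-0.70 ± 0.28) and *Iqsec1* (0.21 ± 0.091), each with an edgeR adjusted p of 0.997. Without the 7 libraries *Homer3* stood at -0.19 and *Iqsec1* at 0.13.

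The second comparison asks whether additional *Ube3a* altered these genes. No member differed between Ube3aOE and WT mice after adjustment in either region by edgeR, DESeq2 or limma voom. By edgeR, 1 gene of 15220 in hippocampus (0.00657%) and 1 of 14947 in cortex (0.00669%) was called, *Ube3a* in both. At an unadjusted p under 0.05 there were 4 members in hippocampus, against 7.21% of all genes, and 1 in cortex, against 4.44%. The median difference of the members was 0.01 in each region. The differences ran from -0.37 (*Nrgn*) to 0.67 (*Camk2d*) in hippocampus and from -0.18 (*Lrrtm4*) to 0.42 (*Homer3*) in cortex. *Homer3* was at 19.8 and 17.0 CPM in the cortices of Ube3aOE mice 8 and 9, which had the highest hippocampal marker sums. The other Ube3aOE cortices were at 10.1, 10.5 and 10.6 CPM, beside 8.59 to 12.3 in WT. *Camk2d*, which lies on chromosome 3, was at 129 ± 56.4 CPM (SD, n = 5) in Ube3aOE and 81.1 ± 24.0 in WT hippocampus. Its unadjusted edgeR p was not under 0.05, and its 4 highest values were in hippocampi with high thalamic or striatal sums. The part of the insertion site or of other regions' RNA was not tested. The 95% interval lay within 0.5 on either side of 0 on the log2 scale for 32 members in hippocampus (69.9% of all genes) and 34 in cortex (73.8% of all genes), so that larger changes of these members lie outside their intervals.

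**Figure D5:**
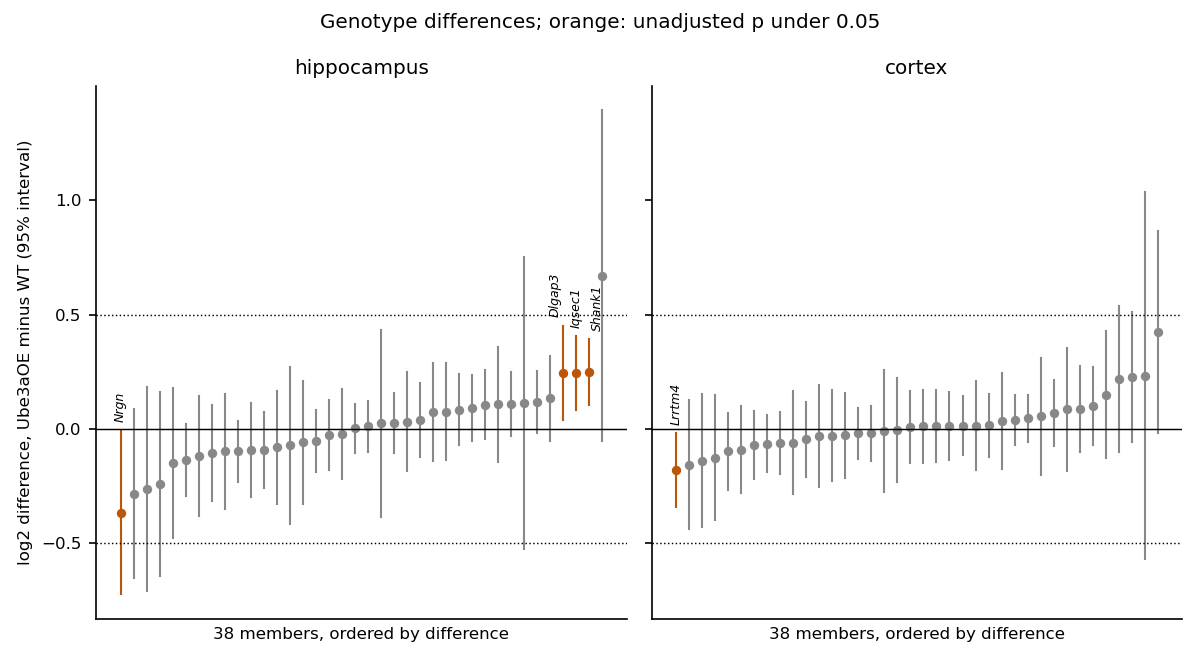
The log2 difference between Ube3aOE and WT mice with its 95% interval for the 38 members, ordered by size, in hippocampus (left) and cortex (right); dotted lines mark 0.5 and -0.5. The 5 orange points are those with an unadjusted p under 0.05, and none passed after adjustment.

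*Shank1*, a scaffold of the lower layer of the postsynaptic density, was in hippocampus at 350.4, 391, 367, 387 and 373 CPM in WT mice 1 to 5 and 419, 411, 446, 429 and 521 CPM in Ube3aOE mice 6 to 10. All 5 Ube3aOE values were above all 5 WT values, a difference of 0.25 ± 0.067 on the log2 scale (edgeR p = 0.00250, adjusted p = 0.668; exact permutation p = 0.00794, the smallest it can give). How many of all genes separate the genotypes in this way was not tested, so the *Shank1* separation has no share over all genes beside it. *Iqsec1* was at 174, 178, 173, 192 and 174 CPM in WT mice 1 to 5 and 186, 196, 201, 232 and 243 CPM in Ube3aOE mice 6 to 10. The groups overlapped through WT mouse 4, and the difference was 0.25 ± 0.075 (edgeR p = 0.00581, adjusted p = 0.668, exact permutation p = 0.0159). *Dlgap3* was at 197, 216, 213, 245 and 214 CPM in WT mice 1 to 5 and 213, 272, 224, 269.6 and 309.8 CPM in Ube3aOE mice 6 to 10. Its difference was 0.25 ± 0.10 (edgeR p = 0.0232, adjusted p = 0.668, exact permutation p = 0.0714), and the highest values were in mice 10, 7 and 9. *Nrgn* had a lower mean in Ube3aOE hippocampus, 925 ± 231 CPM (SD, n = 5), than in WT, 1190.4 ± 116, with the lowest value in mouse 10 and a difference of -0.37 ± 0.16 (edgeR p = 0.0465, adjusted p = 0.668, exact permutation p = 0.0556). Without mouse 10 alone it was -0.24. With the trend on length and GC content removed, *Shank1* stood at 0.10, *Iqsec1* at 0.15, *Dlgap3* at 0.13 and *Nrgn* at -0.35. Without the 7 libraries, which leaves 3 WT and 2 Ube3aOE hippocampi, the differences were 0.25 for *Shank1*, 0.15 for *Iqsec1*, 0.07 for *Dlgap3* and -0.22 for *Nrgn*. *Shank1*, *Iqsec1* and *Dlgap3* had their highest value, and *Nrgn* its lowest, in the hippocampus of mouse 10, where the thalamic markers summed to 958 CPM; the part of thalamic RNA was not tested.

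In cortex *Lrrtm4* was at 49.4, 41.4, 41.3, 52.00 and 46.2 CPM in WT mice 1 to 5 and 39.8, 38.5, 39.7, 41.01 and 44.3 CPM in Ube3aOE mice 6 to 10. The groups overlapped, with a difference of -0.18 ± 0.075 (edgeR p = 0.0318, adjusted p = 0.960, exact permutation p = 0.0556). Of its exon bases, 25.1% lie opposite *Gm4409*. Of the family ratios, 0 of 10 differed between genotypes in either region after adjustment by the exact permutation test over the mice, and before adjustment 3 exact p-values were under 0.05, 2 of them in hippocampus. These were *Iqsec2* to *Iqsec1* (-0.38, exact permutation p = 0.0317) and *Dlg4* to *Dlg3* (-0.14, exact permutation p = 0.0397) in hippocampus, and *Shank1* to *Shank3* (0.12, exact permutation p = 0.0397) in cortex.

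Other genes of the synapse give the setting for these values. Of 25 other postsynaptic density proteins, 10 were higher and 9 lower in hippocampus, among them *Arc*, an activity-induced protein that drives removal of AMPA receptors, at 1.14 ± 0.12 (SE) and *Sipa1l3* at 1.03 ± 0.083 on the log2 scale. Of 12 genes listed for the inhibitory postsynapse, 6 were higher and 0 lower by edgeR, beside 25.3% of all genes higher and 25.6% lower. *Nsf*, at 0.43 ± 0.066, is among the higher ones and is not particular to inhibitory synapses. At an unadjusted p under 0.05 there were 7, of which 6 were higher. The largest calls were the adhesion protein *Igsf9b* at 0.56 ± 0.14 and *Insyn2a* at 0.53 ± 0.087. In WT mice alone 5 of the 12 were higher and 1 lower, and in Ube3aOE mice alone 3 were higher and 0 lower (38% and 26.9% of all genes were called). Of the 4 GABAergic neuron markers 2 were higher in hippocampus as well, *Gad1* by 0.62 and *Gad2* by 0.78. *Slc32a1* (0.25, edgeR adjusted p = 0.182) and *Lhx6* (-0.18, edgeR adjusted p = 0.209) were not called. The 4 summed to 285 to 692 CPM in hippocampus and 255 to 378 in cortex, with none at 0. The 692 CPM was in the hippocampus of mouse 9, the library with the striatal sum of 910.4, and the next highest was 413 in mouse 8. The part of these markers in the differences was not tested. Of 34 other synaptic adhesion proteins, 6 were higher and 12 lower, with *Tenm1* at -1.05 ± 0.16, *Il1rapl2* at -0.92 ± 0.091 and *Cadm3* at -0.73 ± 0.068. *Slitrk6* stood at 2.86 ± 0.74, did not pass the count filter in WT mice alone and was not called by limma voom (1.89, adjusted p = 0.103). It was at 7.36, 11.9 and 25.9 CPM in the hippocampi of mice 4, 7 and 10, those with the high thalamic sums, and at 0.370 to 2.305 in the other 7, higher than cortex in 8 of 10 mice. Its difference was 1.96 without mouse 4 and 1.11 without the 7 libraries. Of 7 axonal receptor phosphatases and liprins, a set that holds the axonal partners of the Slitrks, 2 were higher and 3 lower, with *Ptprd* at -0.93 ± 0.11 and *Ptprs* at 0.29 ± 0.041. Between genotypes, 0 genes of these 4 lists were called in either region by edgeR, while 6 of the 78 tested in hippocampus (7.69%, beside 7.21% of all genes) and 4 of the 77 tested in cortex (5.19%, beside 4.44%) passed 0.05 before adjustment.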

How the data were processed

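The authors deposited raw counts of reads per gene for each library, made per the labels from TruSeq Stranded mRNA libraries. The submitters' processing notes name HISAT2 2.1.0, HTSeq 0.11.2 and GRCm38 (mm10). Positions and exon lengths came from GENCODE M21 and promoters from RefSeq. Of a library's reads, 69.7% to 81.2% were assigned to a gene, and the others entered no total or test.

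Counts were tested in R 4.3.3 with edgeR 4.0.16 (TMM, filterByExpr, robust quasi-likelihood F test, Benjamini-Hochberg adjustment over all genes tested), with limma 3.58.1 (voom) and DESeq2 1.42.0 as alternatives, and plotted in Python 3.11.15. The fits were tested on simulated counts. There DESeq2 made more false calls than the limit first set for every tool, and its limit was then relaxed, while edgeR and limma kept within the first. A hippocampus and a cortex with the same number come from the same mouse: their deviations correlated with a median of 0.215 (9 of 10 mice above 0.1), against -0.0426 for different mice. Families' ratios were taken on log2 CPM (prior count 2). The alternatives were these tools, RLE scaling, no filter, the mouse as a block, removal of length and GC trends (splines with 5 degrees of freedom), labelled sex, all 20 libraries in 1 fit, and each mouse left out. The fit without 7 libraries, whose markers of another region summed to over 1.5 times their tissue's median, and levels without TMM factors were added after seeing the data. The members and lists were chosen with earlier results of these data known. Members may all be named; values in every library are given for those with a regional log2 difference of at least 1, the 3 highest levels and an unadjusted p under 0.05 between genotypes, and other genes are the largest regional calls of each list.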

Additional observations from a re-analysis of the deposited data

Results flagged for a closer look

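Among the 38 members in 4 groups of 5 libraries, 152 searches in all, 8 libraries lay so far from the other 4 that their gap passed Dixon's 95% value (0.710 of the range). Chance gives about 1 in 20, or 7.6 of 152. *Dlg2* was at 682 CPM in the cortex of Ube3aOE mouse 10 (the others 558 to 587), *Dlgap4* at 276 in the hippocampus of Ube3aOE mouse 8 (297 to 303), and *Gphn* at 90.6 in the cortex of Ube3aOE mouse 7 (102 to 104). *Shank3* was at 303 CPM in the hippocampus of Ube3aOE mouse 10 (224 to 242), the library with the highest thalamic marker sum. In WT hippocampus, *Shank2* was at 206 in mouse 2 (163 to 169.6), the library with the highest neocortical marker sum, *Lrrtm2* at 45.1 in mouse 3 (49.5 to 50.8) and *Iqsec2* at 173 in mouse 5 (151 to 156). *Camk2d* was at 127 in the cortex of WT mouse 2 (77.3 to 86.96). The part of other regions' RNA in these values was not tested.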

How the results depend on the processing

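The count of members called between regions was 27, and 24 to 28 under every alternative run. With each mouse left out it was 24 to 26, and it was 26 without the 7 libraries (24 of them among the 27). In WT mice the count was 23, and 17 to 26 with a mouse left out. In Ube3aOE mice it was 16, and 12 to 18 with a mouse left out, lowest without mouse 7. Between genotypes and for the interaction it was 0 under every alternative run. The mouse as a replicate block gave 28, 24 and 17 in the 3 regional fits and changed no other call than those of *Slitrk1*, *Dlg3* and *Lrrtm3*. In the pooled fit the call was lost for *Dlg3* without mouse 1, 4, 6, 9 or 10 (edgeR adjusted p up to 0.115), for *Nlgn3* without mouse 1, 3, 4, 5, 7, 9 or 10 (up to 0.124), for *Kalrn* without mouse 2, 3, 5, 6 or 8 (up to 0.136), for *Homer1* without mouse 4 or 10 (up to 0.0779) and for *Dlgap1* without mouse 6 or 8 (up to 0.0728). *Kalrn* (adjusted p = 0.0819) and *Nlgn3* (adjusted p = 0.0856) were not called without the filter. In DESeq2 *Nlgn3* was at an adjusted p of 0.0501. The log2 ratio of *Nlgn2* to *Nlgn3* ran from -0.031 to 0.0069 with a mouse left out and changed sign without mouse 2. That of *Iqsec2* to *Iqsec1* lost its call without mouse 1, 2, 4, 6, 7, 9 or 10 (exact permutation, adjusted p from 0.0586 to 0.0977), and 7 to 8 ratios passed. The cause of these changes was not tested. All 152 levels moved by less than 1 SD without TMM factors. The lowest count of a member in a library was 134 reads, at which counting alone gives an error of 8.64%, so for the members with few reads the depth limits the precision as well as the spread between mice.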
